A study of Mus musculus with 8 samples.

Results

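Genes of the unfolded protein response and of endoplasmic reticulum (ER) stress were followed in sorted cells of MCa-P1362, a mouse mammary tumour cell line that came from a spontaneous tumour of a Balb/c female breeder. The list holds 31 genes chosen by name: 9 ER chaperones, 6 disulfide isomerases and secreted ER stress proteins, 6 genes of ER-associated degradation and translocation, 6 stress sensors and transcription factors, and 4 targets of the transcription factor ATF4. All 31 were among the 24421 gene names in the files, and 30 of them were among the 12012 genes tested, those with 1 FPKM or more in at least 2 libraries. The remaining gene was Derl3, a subunit of the channel that pulls misfolded proteins out of the ER, listed at 0.0129 to 0.165 FPKM. Total RNA of 8 libraries was measured, 2 for each of 4 groups: monoculture EpCAM+, coculture EpCAM+, monoculture EpCAM- and coculture EpCAM-, where EpCAM is an adhesion protein of the epithelial surface on which the cells were sorted. The labels name no further treatment, genotype or transgene, and the line is shared by all 4 groups. They state that cells were frozen directly after the sort or were first grown and passaged, and do not say which of these is coculture or monoculture. Whether both libraries of a group come from different cultures is not stated either; the p-values then reflect how far the 2 libraries of each group lay apart, and that spread may be a technical one.

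The unfolded protein response begins at sensors in the ER membrane. IRE1, encoded by Ern1, cuts the Xbp1 message so that it codes for an active transcription factor. ATF6 is cleaved into a factor of its own, and the kinase PERK, encoded by Eif2ak3, slows translation through the initiation factor eIF2 while favouring translation of ATF4. Factors from IRE1 and ATF6 drive chaperone and degradation genes, and ATF4, which other eIF2 kinases also feed, drives genes of amino acid supply and the stress factor CHOP, encoded by Ddit3. Secretory cells depend on this system to fold the proteins they export.

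The values are FPKM, fragments divided by both transcript length and library depth, so that levels can be set side by side between genes. FPKM summed to 387489 to 414612 per library, and the depth in reads is unknown. The sum of 8 epithelial markers was 8130 to 9240 FPKM in EpCAM+ libraries and 15 to 28.8 FPKM in EpCAM- libraries. The sum of 8 fibroblast and mesenchymal markers was 13.8 FPKM in both monoculture EpCAM+ libraries and 159 and 160 FPKM in coculture EpCAM+ libraries, against 9060 to 9430 FPKM in EpCAM- libraries. Sums of 8 leukocyte and 6 endothelial markers stayed at or below 3.89 FPKM in every library. The share of EpCAM- RNA in an EpCAM+ library was estimated from 8 genes of the EpCAM- cells, picked from earlier results of these data. The median ratio of EpCAM+ to EpCAM- level was 0.121% and 0.133% in monoculture and 1.68% and 1.7% in coculture. By this ratio, RNA from EpCAM- cells and expression of these genes in EpCAM+ cells cannot be told apart. The libraries are of bulk RNA, in which fewer cells of a type and less RNA per cell cannot be told apart.

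Most of these genes were lower in EpCAM+ cells than in EpCAM- cells, and the genes of the ATF4 branch were lowest of all in monoculture EpCAM+ cells. Together the 31 genes made up 0.87% and 0.867% of all FPKM in monoculture EpCAM+ libraries and 0.835% and 0.842% in coculture EpCAM+ libraries, against 1.14% in both monoculture EpCAM- libraries and 1.16% in both coculture EpCAM- libraries. In monoculture, 20 of the 30 tested genes were lower in EpCAM+ than in EpCAM- and 8 were higher at an adjusted p under 0.05 by limma. Of all 12012 genes, 87.9% were called in that comparison, 32.4% as lower and 55.4% as higher. In coculture, 18 were lower and 8 higher in EpCAM+, where 87.2% of all genes were called, 28% as lower and 59.2% as higher. The median log2 fold change of the 30 genes was -0.28 in monoculture and -0.24 in coculture, and that of all tested genes was 0.23 in monoculture and 0.26 in coculture. Scaling by the median of ratios brought the median of all genes to 0.01 in monoculture and 0 in coculture. It gave 24 lower and 4 higher in monoculture, with a median of -0.53 for the 30 genes, and 24 lower and 3 higher in coculture, with a median of -0.52. Of all 11988 genes then tested, 10294 were called in monoculture, 50.5% of these as higher, and 10025 in coculture, 49.8% as higher. At a change of at least 2-fold, 5 of the 30 genes were lower in EpCAM+ in monoculture, where 12.6% of all genes were, and 2 were lower and 1 higher in coculture, where 10.1% and 16.5% of all genes were. The 5 in monoculture were Ddit3, Herpud1, Trib3, Asns and Chac1, and those in coculture were Herpud1 and Asns as lower and Eif2ak3 as higher. Both replicates of a group lay close together: the largest gap of a member between them was 0.26 on the log2 scale, for Xbp1 in coculture EpCAM-. For 17 of the 30 genes every EpCAM+ library lay below every EpCAM- library, an order that 23.9% of all tested genes showed, and for 6 of the 30 every EpCAM+ library lay above, as for 50% of all tested genes.

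**Figure D1:**
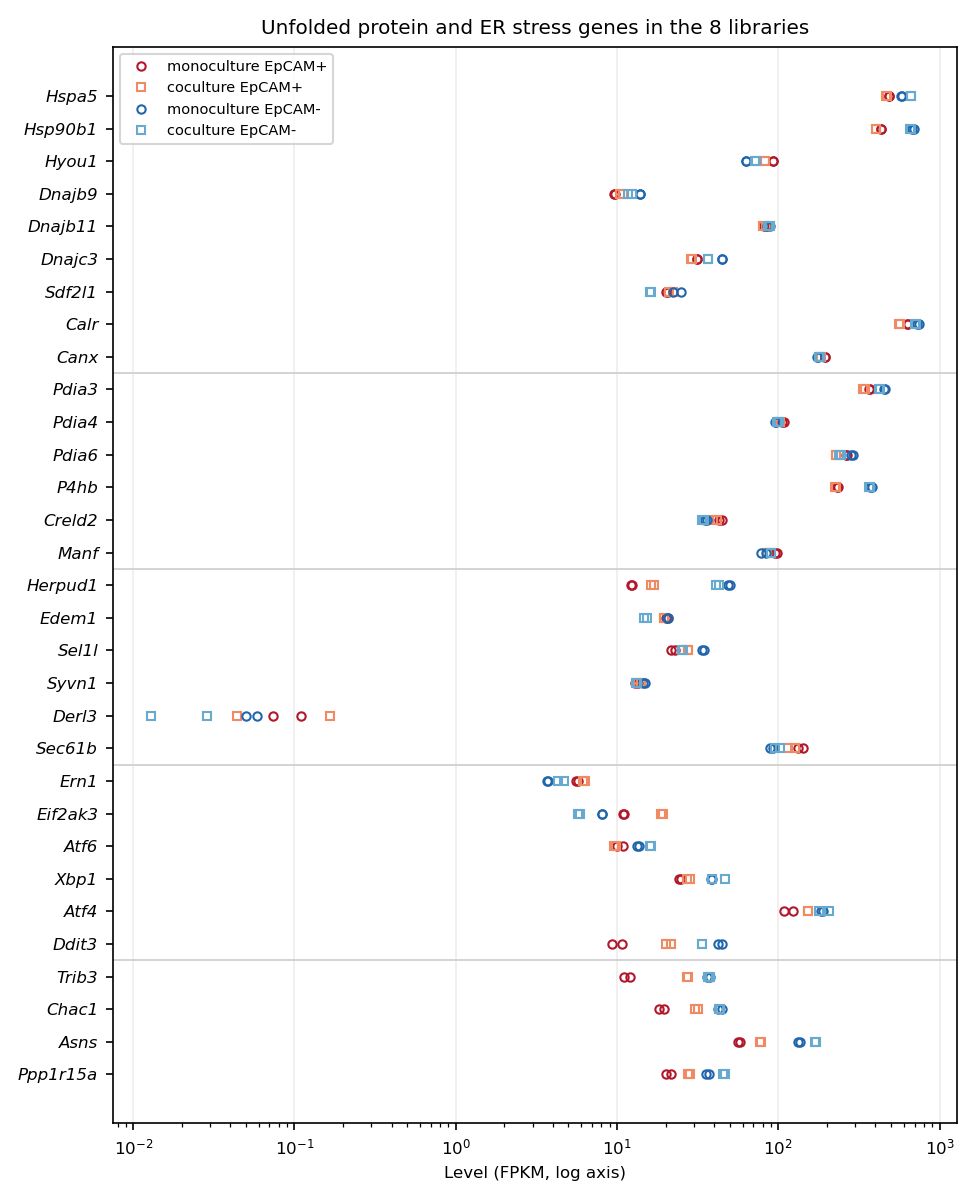
Level of each of the 31 genes in each of the 8 libraries (FPKM, log axis); symbols and colours mark the 4 groups, and grey lines part the roles. Calr, Hspa5 and Hsp90b1 stand at the top of the scale with 405 FPKM or more in every library, and Derl3 lies at 0.165 FPKM or below.

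**Figure D2:**
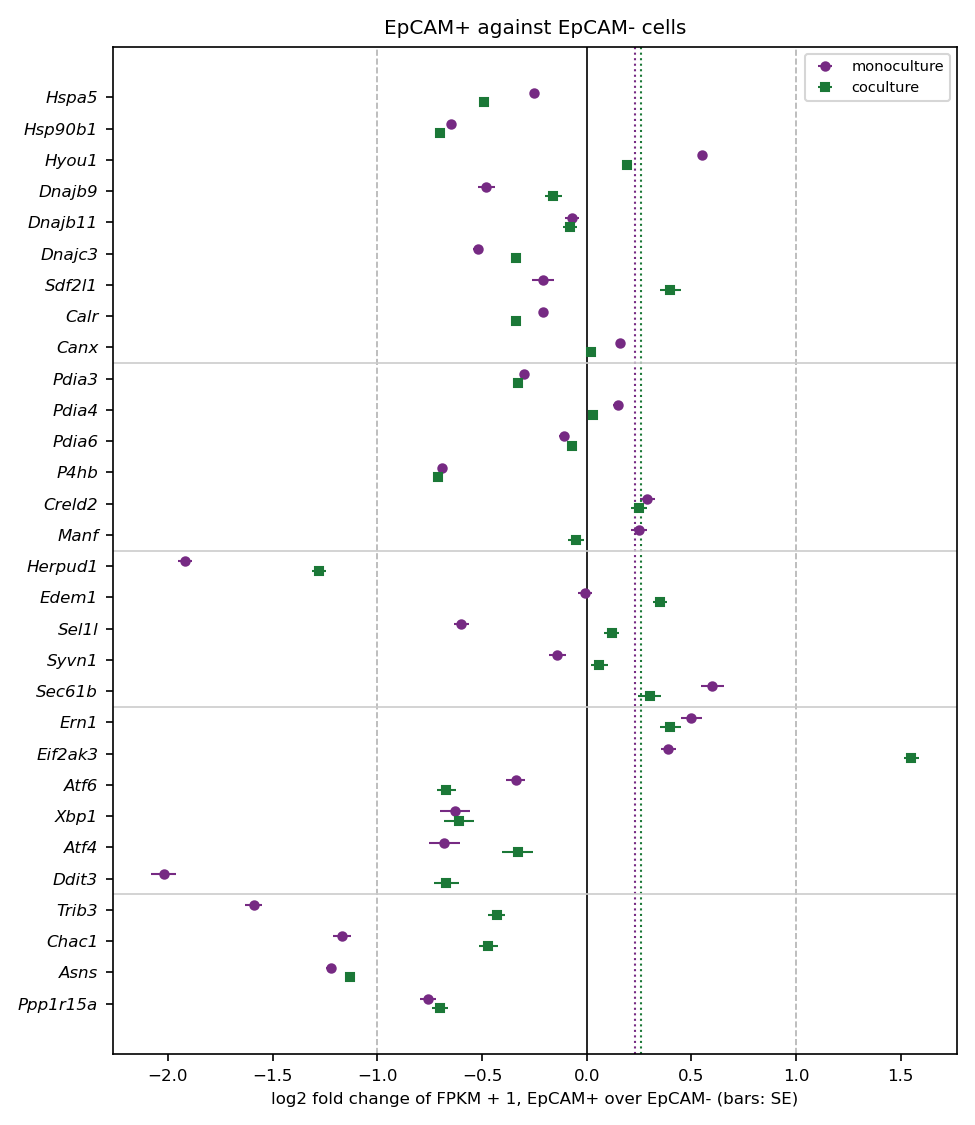
Log2 fold change of FPKM + 1, EpCAM+ over EpCAM-, for the 30 tested genes in monoculture (circles) and coculture (squares), with standard errors; dotted lines show the median of all tested genes and dashed lines a 2-fold change. Ddit3 and Herpud1 lie farthest to the left in monoculture, at -2.02 and -1.92, and Eif2ak3 in coculture farthest to the right, at 1.55.

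Among the sensors, the PERK kinase gene was higher in EpCAM+ cells, unlike Atf4 and the targets of ATF4 listed here. Eif2ak3 (chromosome 6, 70844515 to 70905245, plus strand, GRCm38) had 11 and 10.9 FPKM in monoculture EpCAM+ libraries and 19.3 and 18.7 FPKM in coculture EpCAM+ libraries, against 8.11 and 8.05 FPKM in monoculture EpCAM- libraries and 5.74 and 5.87 FPKM in coculture EpCAM- libraries. The 4 groups did not overlap, and coculture held both the highest and the lowest. Its log2 fold change in EpCAM+ was 0.39 in monoculture (SE 0.035, adjusted p = 1.08e-05) and 1.55 in coculture (SE 0.035, adjusted p = 2.14e-09). The median of all tested genes was 0.23 in monoculture and 0.26 in coculture. By the median of ratios Eif2ak3 was at 0.17 in monoculture (adjusted p = 0.00232) and 1.29 in coculture. Exons of Eif2ak3 share 485 bases, 8.05% of their length, with Gm43292 on the other strand. Ern1, the IRE1 gene, was also higher in EpCAM+ cells, with means of 5.67 ± 0.132 FPKM in monoculture EpCAM+ and 6.27 ± 0.115 FPKM in coculture EpCAM+, against 3.7 ± 0.024 FPKM in monoculture EpCAM- and 4.52 ± 0.273 FPKM in coculture EpCAM- (SD, n = 2 each). Its log2 fold change was 0.50 in monoculture (adjusted p = 1.77e-05) and 0.40 in coculture (adjusted p = 8.71e-05), the second of which was lost under quantile normalization (0.06, adjusted p = 0.247). Ern1 lies on chromosome 11, whose 970 tested genes had a median of 0.47 in monoculture and 0.50 in coculture in the same comparisons. Of the other members on that chromosome, Xbp1 and P4hb were lower in EpCAM+ in both cultures. Canx, also there, was at 0.16 in monoculture and 0.02 in coculture. The part of the chromosome in the change of Ern1 was not tested. Atf6, the sensor that is itself a transcription factor, was lower in EpCAM+ cells, at log2 fold changes of -0.34 in monoculture (adjusted p = 0.000172) and -0.67 in coculture (adjusted p = 2.34e-06).

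Xbp1 and Atf4, the factors downstream of IRE1 and PERK, were lower in EpCAM+ cells as well. Xbp1 had 24.2 and 24.9 FPKM in monoculture EpCAM+ libraries and 27.2 and 28.2 FPKM in coculture EpCAM+ libraries, against 38.9 and 38.3 FPKM in monoculture EpCAM- libraries and 47 and 39.1 FPKM in coculture EpCAM- libraries. The fractions did not overlap, at log2 fold changes of -0.63 in monoculture (SE 0.073, adjusted p = 5.65e-05) and -0.61 in coculture (SE 0.073, adjusted p = 7.35e-05). FPKM per gene does not tell the cut from the uncut Xbp1 message, and activation of the sensors was not measured. Atf4 had 107.8 and 124 FPKM in monoculture EpCAM+ libraries and 153 and 153 FPKM in coculture EpCAM+ libraries, against 188 and 184 FPKM in monoculture EpCAM- libraries and 179 and 205 FPKM in coculture EpCAM- libraries. Its log2 fold change was -0.68 in monoculture (SE 0.074, adjusted p = 3.84e-05) and -0.33 in coculture (SE 0.074, adjusted p = 0.00339). ATF4 protein is set largely by translation, which these files do not show.

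The largest fraction difference of the 30 genes in monoculture was in Ddit3 (chromosome 10, 127290774 to 127296288, plus strand), which encodes CHOP, a factor of prolonged stress. Ddit3 had 10.7 and 9.37 FPKM in monoculture EpCAM+ libraries and 20.1 and 21.6 FPKM in coculture EpCAM+ libraries, against 42.6 and 44.9 FPKM in monoculture EpCAM- libraries and 33.7 and 33.8 FPKM in coculture EpCAM- libraries. No group overlapped another, and monoculture held both the lowest and the highest. Its log2 fold change was -2.02 in monoculture (SE 0.06, adjusted p = 9.89e-09) and -0.67 in coculture (SE 0.06, adjusted p = 1.17e-05). Its exons share 68 bases, 3.97% of their length, with Mars on the other strand, and whether the counting used strand is not given in the sources used here.

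All 4 ATF4 targets of the list were called lower in EpCAM+ cells in both cultures. Their median log2 fold change was -1.19 in monoculture and -0.58 in coculture. Of all tested genes, 32.4% were called lower in monoculture and 28% in coculture. Further targets, described below, were mixed: of 19, 11 were lower in each culture, and 6 higher in monoculture and 5 in coculture. Promoters of the members were searched for the response element of ATF4, the C/EBP-ATF composite site CARE, written TGATGNAA, on both strands in the 250 bases before and 50 after each start in RefSeq (GRCm38.p6). Of the 28 members with a promoter in that table, 4 held it, namely Trib3, Chac1, Asns and Herpud1, and so did 3.97% of the 32851 promoters of the table. They are shown because they are the promoters of 4 of the 5 members that were at least 2-fold lower in monoculture EpCAM+ cells. Capitals mark the fixed letters of the motif, read as the reverse complement where it lies on the other strand, and in Herpud1 also those of the ER stress response element ERSE-II, which is ATTGG, any base and CCACG. The windows are chr2:152344011-152344310 (minus strand) for Trib3, chr2:119350992-119351291 (plus) for Chac1, chr6:7693160-7693459 (minus) for Asns and chr8:94386179-94386478 (plus) for Herpud1.
Trib3: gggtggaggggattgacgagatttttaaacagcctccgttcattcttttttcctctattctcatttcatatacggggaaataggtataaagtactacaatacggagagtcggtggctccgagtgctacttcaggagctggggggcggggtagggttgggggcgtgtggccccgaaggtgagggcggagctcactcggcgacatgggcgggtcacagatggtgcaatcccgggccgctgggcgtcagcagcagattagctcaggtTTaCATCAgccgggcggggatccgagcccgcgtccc
Chac1: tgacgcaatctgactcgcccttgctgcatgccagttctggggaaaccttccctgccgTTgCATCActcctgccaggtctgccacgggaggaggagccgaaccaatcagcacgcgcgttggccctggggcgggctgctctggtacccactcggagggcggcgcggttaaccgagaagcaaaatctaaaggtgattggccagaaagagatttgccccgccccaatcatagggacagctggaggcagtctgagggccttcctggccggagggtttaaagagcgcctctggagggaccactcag
Asns: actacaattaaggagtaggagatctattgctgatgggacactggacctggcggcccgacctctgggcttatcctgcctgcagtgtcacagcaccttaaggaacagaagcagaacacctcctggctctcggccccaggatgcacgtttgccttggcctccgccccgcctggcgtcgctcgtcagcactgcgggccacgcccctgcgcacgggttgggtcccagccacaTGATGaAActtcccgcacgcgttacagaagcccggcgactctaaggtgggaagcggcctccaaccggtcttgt
Herpud1: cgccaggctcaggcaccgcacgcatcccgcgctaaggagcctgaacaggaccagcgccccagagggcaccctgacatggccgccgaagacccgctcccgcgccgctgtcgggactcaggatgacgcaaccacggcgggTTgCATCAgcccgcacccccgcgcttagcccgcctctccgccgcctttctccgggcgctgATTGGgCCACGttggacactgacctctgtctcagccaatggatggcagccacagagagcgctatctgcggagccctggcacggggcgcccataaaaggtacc
The 4 genes had a median log2 fold change of -1.40 in monoculture, between -1.92 and -1.17, and of -0.80 in coculture, between -1.28 and -0.43. The windows were shown for the change in monoculture, and Trib3, Chac1 and Asns entered the list as ATF4 targets. These values are therefore no test of a link between motif and change. A match of letters is a description of the window and shows no binding. The windows of Ddit3 and Ppp1r15a held no such letters.

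Trib3, a pseudokinase that ATF4 and CHOP induce and that feeds back on them, had 12 and 11.1 FPKM in monoculture EpCAM+ libraries and 27.3 and 27.7 FPKM in coculture EpCAM+ libraries, against 37.7 and 36 FPKM in monoculture EpCAM- libraries and 38 and 36.8 FPKM in coculture EpCAM- libraries. The EpCAM- groups overlapped each other, while monoculture EpCAM+ lay far below the other 3 groups. The log2 fold change in EpCAM+ was -1.59 in monoculture (SE 0.041, adjusted p = 4.18e-09) and -0.43 in coculture (SE 0.041, adjusted p = 1.74e-05). Chac1, an enzyme that degrades glutathione, followed the same order, with 19.5 and 18.2 FPKM in monoculture EpCAM+ libraries and 30.4 and 31.7 FPKM in coculture EpCAM+ libraries, against 44.9 and 42.1 FPKM in monoculture EpCAM- libraries and 43.8 and 43 FPKM in coculture EpCAM- libraries. Its log2 fold change was -1.17 in monoculture (SE 0.044, adjusted p = 4.47e-08) and -0.47 in coculture (SE 0.044, adjusted p = 1.57e-05).

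Asns, which makes asparagine, was more than 2-fold lower in EpCAM+ in both cultures. It had 56.6 and 58 FPKM in monoculture EpCAM+ libraries and 76.7 and 78 FPKM in coculture EpCAM+ libraries, against 136 and 133 FPKM in monoculture EpCAM- libraries and 170.4 and 169.8 FPKM in coculture EpCAM- libraries. Monoculture lay below coculture in each fraction, with no overlap. The log2 fold change in EpCAM+ was -1.22 in monoculture (SE 0.023, adjusted p = 6.41e-10) and -1.13 in coculture (SE 0.023, adjusted p = 1.12e-09). Ppp1r15a, the phosphatase subunit GADD34 that restores translation by removing the phosphate from eIF2, had means of 20.96 ± 1 FPKM in monoculture EpCAM+ and 28.1 ± 0.614 FPKM in coculture EpCAM+, against 36.25 ± 0.979 FPKM in monoculture EpCAM- and 46.2 ± 0.655 FPKM in coculture EpCAM- (SD, n = 2 each). Its log2 fold change was -0.76 in monoculture (adjusted p = 2.54e-07) and -0.70 in coculture (adjusted p = 4.97e-07).

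**Figure D3:**
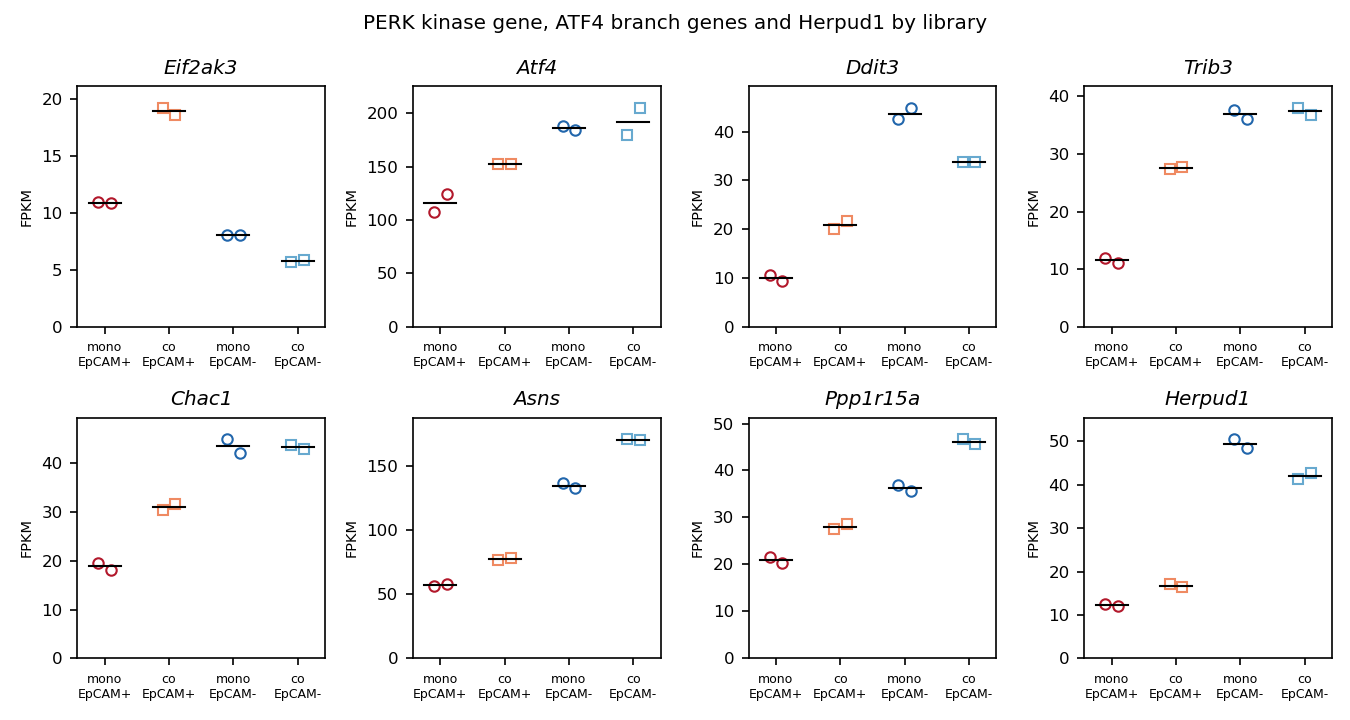
FPKM of Eif2ak3, Atf4, Ddit3, Trib3, Chac1, Asns, Ppp1r15a and Herpud1 in each library (points) with the mean of each group (lines), each panel on its own axis from 0. In every panel but that of Eif2ak3 the monoculture EpCAM+ libraries are the lowest of the 4 groups, as with Trib3 at 12 and 11.1 FPKM.

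The ER chaperones included the most abundant of the genes, and none of them differed by 2-fold between the fractions. Of 9, 6 were lower and 2 higher in EpCAM+ in both cultures, with a median log2 fold change of -0.21 in monoculture and -0.16 in coculture. Over all tested genes, 32.4% were called lower and 55.4% higher in monoculture, and 28% and 59.2% in coculture. With scaling by the median of ratios 8 of the chaperones were lower and 1 higher in both. Hspa5 (chromosome 2, 34771970 to 34777547, plus strand) encodes BiP, the main ER chaperone, which also holds the sensors inactive. It had 488 and 486 FPKM in monoculture EpCAM+ libraries and 470.3 and 468 FPKM in coculture EpCAM+ libraries, against 583 and 578 FPKM in monoculture EpCAM- libraries and 661 and 661 FPKM in coculture EpCAM- libraries. The fractions did not overlap, and the log2 fold change was -0.25 in monoculture (SE 0.015, adjusted p = 9.4e-07) and -0.49 in coculture (SE 0.015, adjusted p = 1.52e-08). Hsp90b1, the ER form of the heat shock protein HSP90, was lower, at log2 fold changes of -0.65 in monoculture (adjusted p = 5.43e-09) and -0.70 in coculture (adjusted p = 3.82e-09). Its group means were 433 ± 0.7705 FPKM in monoculture EpCAM+ and 406 ± 0.4725 FPKM in coculture EpCAM+, against 682 ± 10.8 FPKM in monoculture EpCAM- and 661 ± 4.71 FPKM in coculture EpCAM- (SD, n = 2 each). A transcribed pseudogene on the other strand, listed at a mean of 0.569 FPKM, overlaps 10.3% of the exonic bases of Hsp90b1.

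Among the co-chaperones, Dnajc3, which serves BiP and restrains PERK, was lower in EpCAM+, at -0.52 in monoculture (adjusted p = 1.07e-07) and -0.34 in coculture (adjusted p = 1.8e-06), both on the log2 scale. Dnajb9, another BiP partner, was lower, at -0.48 in monoculture (adjusted p = 6.64e-06). Hyou1, an exchange factor and chaperone of the ER, went the other way in monoculture, with a log2 fold change of 0.55 (adjusted p = 2.34e-08), from 92.1 ± 0.0167 FPKM in monoculture EpCAM+ against 62.7 ± 0.00828 FPKM in monoculture EpCAM- (SD, n = 2 each). In coculture Hyou1 was at 82.6 ± 0.086 FPKM in EpCAM+ against 72.4 ± 0.4865 FPKM in EpCAM- (SD, n = 2 each), a difference whose sign turned under another scaling. Sdf2l1, which acts with BiP and its co-chaperones, had a positive log2 fold change of 0.40 in coculture (adjusted p = 0.000127). Calr, the lectin chaperone calreticulin, ranged from 559.8 to 634 FPKM in EpCAM+ libraries and from 709 to 742 FPKM in EpCAM- libraries, with a log2 fold change of -0.34 in coculture (adjusted p = 5.45e-07). Its membrane-bound relative Canx, calnexin, lay between 174 and 196 FPKM in all 8 libraries, and Dnajb11, a further BiP partner, between 80.6 and 89.2 FPKM.

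The promoter of Hspa5 is shown because it holds both classical elements of the response, the ER stress response element ERSE, which is CCAAT and CCACG with 9 bases of any kind between them, and the core of the unfolded protein response element, TGACGTG, whose fixed letters are in capitals. The window is chr2:34771840-34772139 on the plus strand (RefSeq, GRCm38.p6).
Hspa5: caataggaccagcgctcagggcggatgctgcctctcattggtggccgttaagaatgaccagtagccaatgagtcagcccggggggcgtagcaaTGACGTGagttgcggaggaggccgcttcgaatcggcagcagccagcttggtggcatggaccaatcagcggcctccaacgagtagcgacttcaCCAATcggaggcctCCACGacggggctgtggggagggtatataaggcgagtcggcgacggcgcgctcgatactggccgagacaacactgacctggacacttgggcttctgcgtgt
ERSE or ERSE-II was found on either strand in 11 of the 28 member promoters and in 0.155% of all 32851, and no match overlapped that of another motif. The core TGACGTG was found in Hspa5 alone of the members and in 2.01% of all promoters. The 10 tested members with ERSE or ERSE-II had a median log2 fold change in EpCAM+ of -0.18 in monoculture, between -1.92 and 0.29, and Herpud1, which also holds CARE, was the lowest of them. The 14 tested members with neither ERSE nor CARE had a median of -0.39, between -2.02 and 0.60. In coculture the order of the medians was the other way round, at -0.21 with ERSE or ERSE-II, between -1.28 and 0.25, and at -0.06 with neither, between -0.71 and 1.55.

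Of the 6 isomerases and secreted proteins, 3 were lower and 3 higher in EpCAM+ in monoculture, and 3 lower and 1 higher in coculture. The shares of all tested genes were 32.4% lower and 55.4% higher in monoculture, and 28% and 59.2% in coculture. By the median of ratios 4 of the 6 were called, all as lower, in monoculture and 5, all as lower, in coculture. P4hb, protein disulfide isomerase and a subunit of the collagen prolyl hydroxylase, was lower, at -0.69 in monoculture (adjusted p = 6.42e-09) and -0.71 in coculture (adjusted p = 6.02e-09). It had 234 ± 2.43 FPKM in monoculture EpCAM+ and 226 ± 1.79 FPKM in coculture EpCAM+, against 377 ± 5.76 FPKM in monoculture EpCAM- and 369 ± 1.92 FPKM in coculture EpCAM- (SD, n = 2 each). Pdia3, the isomerase that works with calnexin and calreticulin, was lower, at -0.30 in monoculture (adjusted p = 1.21e-06) and -0.33 in coculture (adjusted p = 8.65e-07). Pdia6, an isomerase that can silence IRE1, lay between 228 and 290.5 FPKM in the 8 libraries and Pdia4 between 95.05 and 107.9 FPKM. Creld2, a secreted ER stress protein, was at 39.4 to 44.9 FPKM in EpCAM+ libraries and 33.4 to 36.3 FPKM in EpCAM- libraries, without overlap. That difference was lost by the median of ratios, at 0.05 in monoculture (adjusted p = 0.221) and -0.03 in coculture (adjusted p = 0.416). Manf, a secreted survival factor, was at 84.9 to 98.6 FPKM in EpCAM+ libraries and 78.5 to 90.4 FPKM in EpCAM- libraries, with overlap.

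In ER-associated degradation, Herpud1 set itself apart from the other genes of its role. Herpud1 (chromosome 8, 94386438 to 94395377, plus strand) encodes a membrane protein that brings together the degradation complex. It had 12.4 and 12.2 FPKM in monoculture EpCAM+ libraries and 17.1 and 16.3 FPKM in coculture EpCAM+ libraries, against 50.5 and 48.5 FPKM in monoculture EpCAM- libraries and 41.4 and 42.7 FPKM in coculture EpCAM- libraries. The EpCAM- libraries all lay far above the EpCAM+ libraries, at log2 fold changes of -1.92 in monoculture (SE 0.034, adjusted p = 4.98e-10) and -1.28 in coculture (SE 0.034, adjusted p = 6.07e-09). With the share of EpCAM- RNA subtracted from the EpCAM+ libraries, the value in coculture was -1.34. Sel1l, the adaptor of the ubiquitin ligase HRD1, was lower in EpCAM+ in monoculture, at -0.60 (adjusted p = 9.49e-07), with 22.25 ± 1.04 FPKM against 34.15 ± 0.858 FPKM in EpCAM- (SD, n = 2 each). In coculture Sel1l was at 27.7 ± 0.0439 FPKM in EpCAM+ against 25.4 ± 0.432 FPKM in EpCAM- (SD, n = 2 each), and the sign of that difference turned under another scaling. Syvn1, the ligase HRD1 itself, lay between 12.8 and 15 FPKM in all libraries. Edem1, which picks out misfolded glycoproteins, had a log2 fold change of 0.35 in coculture (adjusted p = 1.59e-05), lost by the median of ratios (0.08, adjusted p = 0.0592). Sec61b, a subunit of the channel through which proteins enter the ER, was higher in EpCAM+ in monoculture by 0.60 (adjusted p = 1.37e-05); it lies on chromosome 4, whose 720 tested genes had a median of 0.52 in that comparison, and the part of the chromosome in it was not tested.

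Between the cultures, most chaperones and isomerases of the list were slightly higher in monoculture EpCAM+ cells, while the ATF4 branch was lower. In EpCAM+ cells, 12 of the 30 genes were higher and 10 lower in monoculture than in coculture, where 51.4% of all genes were called, 16.4% as higher and 34.9% as lower. Without replicate 1 of coculture EpCAM+ the higher count was 7. The higher ones were 6 of 9 chaperones, 5 of 6 isomerases and secreted proteins and Sec61b. Pdia6 had the largest of these changes, at 0.21 on the log2 scale. The chaperone Dnajb9 was lower, at -0.13 (adjusted p = 0.0269). Of the 14 other ER folding enzymes described below, 2 were higher and 5 lower, with a median of 0. All 4 ATF4 targets were lower, with a median of -0.56, as were Eif2ak3, Atf4 and Ddit3 among the 6 sensors and factors. Trib3 in EpCAM+ cells was lower in monoculture, at -1.18 on the log2 scale (SE 0.041, adjusted p = 5.37e-07), the 1 member past 2-fold, where 1.67% of all genes were lower by as much. Ddit3 was lower, at -0.99 (SE 0.06, adjusted p = 9.67e-06) and came past 2-fold with a pseudocount of 0.5 or 0.1, and without replicate 1 of monoculture EpCAM+ or of coculture EpCAM+. Eif2ak3 was lower, at -0.74 (SE 0.035, adjusted p = 2.64e-06), Chac1 at -0.69 (SE 0.044, adjusted p = 1.25e-05), Asns at -0.43 (adjusted p = 5.07e-06), Herpud1 and Ppp1r15a at -0.41 each (adjusted p = 5.13e-05 and 9.52e-05) and Atf4 at -0.40 (adjusted p = 0.00312). The estimated share of EpCAM- RNA was higher in coculture EpCAM+ libraries, as given above, and most of these genes are higher in EpCAM- cells. With those shares subtracted, Trib3 was at -1.16 and Ddit3 at -0.96. Whether the shares are RNA carried over from EpCAM- cells was not tested.

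In EpCAM- cells, 11 of the 30 genes were higher and 7 lower in monoculture than in coculture, where 62.7% of all genes were called, 32.4% as higher and 30.3% as lower. Degradation and translocation had 4 of its 5 tested genes higher, with a median log2 fold change of 0.23. The change farthest from 0 was that of Sdf2l1, at 0.52 (SE 0.052, adjusted p = 6.52e-05), followed by Edem1 at 0.43 (adjusted p = 1.56e-05), Eif2ak3 at 0.42 (adjusted p = 2.41e-05), Sel1l at 0.41 (adjusted p = 3.32e-05) and Ddit3 at 0.36 (adjusted p = 0.00101). Asns and Ppp1r15a were lower, at -0.34 each (adjusted p = 7.51e-06 and 0.00012), and Hspa5 at -0.19 (adjusted p = 2.15e-05). Trib3 and Chac1 had adjusted p = 0.705 and 0.959 in EpCAM- cells, with overlapping libraries.

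The interaction, which takes the monoculture change in EpCAM- cells from that in EpCAM+ cells, was called for 21 of the 30 genes, 8 as higher and 13 as lower, and for 65.2% of all genes, 26% as higher and 39.2% as lower. Past 2-fold it was lower for Ddit3, at -1.35 (SE 0.084, adjusted p = 5.68e-06), for Trib3, at -1.16 (SE 0.058, adjusted p = 1.76e-06), and for Eif2ak3, at -1.16 (SE 0.049, adjusted p = 8.26e-07), where 5.66% of all genes were lower by as much. For Ddit3 and Eif2ak3 the change between cultures had opposite signs in EpCAM+ and EpCAM- cells, and both signs passed the test. Chac1 had an interaction of -0.70 (SE 0.062, adjusted p = 3.84e-05), Sel1l of -0.71 (SE 0.052, adjusted p = 1.24e-05) and Herpud1 of -0.64 (SE 0.049, adjusted p = 1.54e-05). That of Asns was -0.09 (SE 0.032, adjusted p = 0.0382), a call lost when any of 6 of the libraries was left out, and that of Ppp1r15a -0.06 (SE 0.054, adjusted p = 0.319). Among the chaperones the interaction ran from -0.61 for Sdf2l1 (SE 0.073, adjusted p = 0.000198) to 0.36 for Hyou1 (SE 0.026, adjusted p = 1.31e-05), with Hspa5 at 0.24 (SE 0.022, adjusted p = 3.94e-05).

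**Figure D4:**
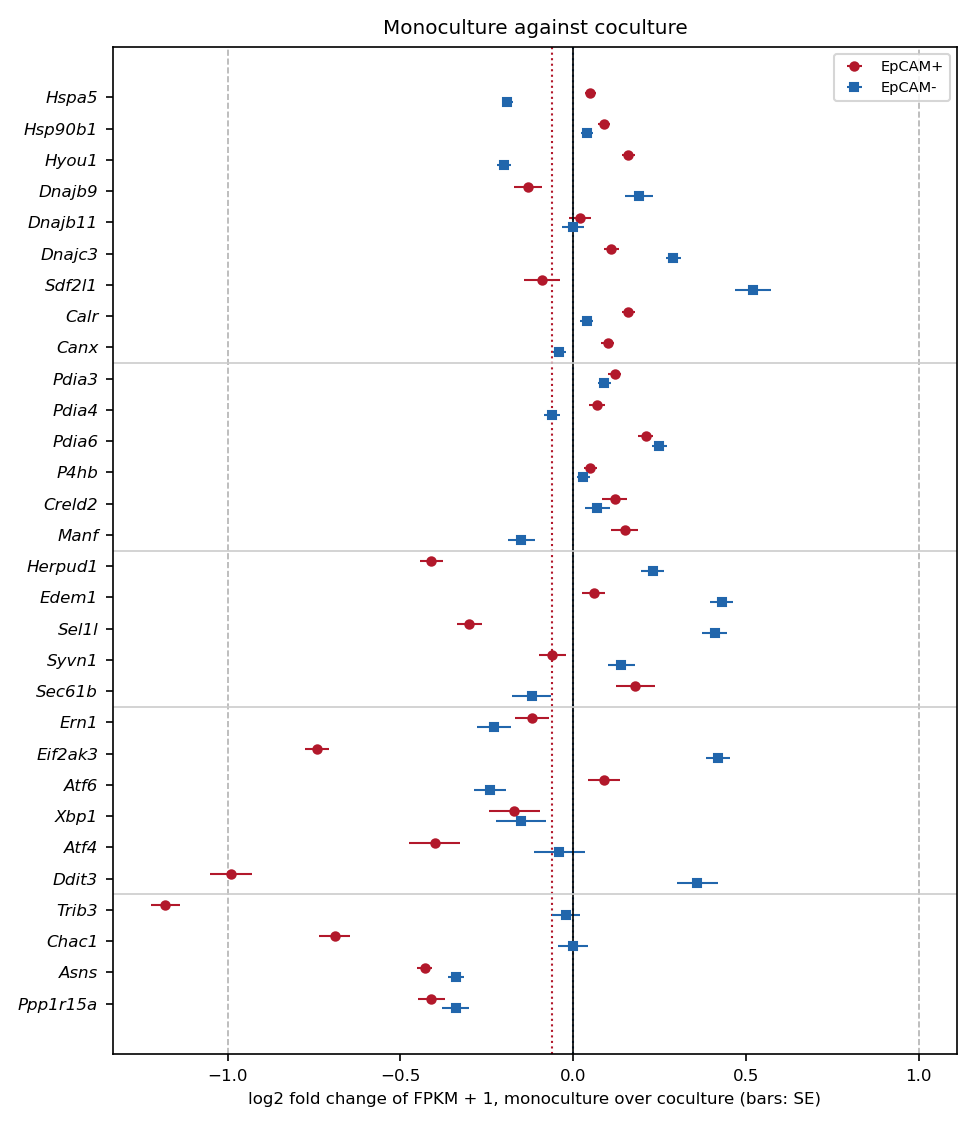
Log2 fold change of FPKM + 1, monoculture over coculture, for the 30 tested genes in EpCAM+ (circles) and EpCAM- cells (squares), with standard errors; dotted lines show the median of all tested genes and dashed lines a 2-fold change. Trib3 in EpCAM+ cells is farthest to the left at -1.18, while in EpCAM- cells it lies near 0.

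Genes around the 31, in lists made from the same pathway, showed where the ER of the fractions differed more. All 12 genes of collagen folding and modification were lower in EpCAM+ in both cultures, with a median log2 fold change of -2.32 in monoculture and -2.19 in coculture. Over all tested genes, 32.4% were called lower and 55.4% higher in monoculture, and 28% and 59.2% in coculture. Fkbp10, a proline isomerase that acts on collagen, was lowest, at -7.03 in monoculture (SE 0.034, adjusted p = 1.07e-12) and -5.34 in coculture (SE 0.034, adjusted p = 4.62e-12), where it was at -6.98 with the share of EpCAM- RNA subtracted. Of 14 other ER folding enzymes, 10 were lower in EpCAM+ in each culture, and 2 higher in monoculture and 3 in coculture. The isomerase Pdia5 was at -3.71 in monoculture (adjusted p = 2.01e-11) and -3.38 in coculture (adjusted p = 3.75e-11), and the prolyl isomerase Fkbp14 at -4.07 and -3.02 (adjusted p = 4.96e-11 and 2.6e-10). Of 12 genes of N-glycosylation, 9 were lower and 2 higher in monoculture and 10 lower and 2 higher in coculture, and scaling by the median of ratios made all 12 lower in both. Mogs, the glucosidase that starts trimming of the glycan, was lowest at -0.91 in monoculture (adjusted p = 2.6e-06) and -1.24 in coculture (adjusted p = 3.9e-07).

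Entry into the ER had calls in both directions. Of 16 translocon and signal peptidase genes, 7 were higher and 7 lower in EpCAM+ in monoculture, and 8 higher and 6 lower in coculture. Over all tested genes, 55.4% were higher and 32.4% lower in monoculture, and 59.2% and 28% in coculture. The median of the list was -0.03 in monoculture and 0.04 in coculture, below the 0.23 and 0.26 of all tested genes. By the median of ratios the calls of the list were 6 higher and 9 lower in monoculture, and 4 and 10 in coculture. Sec11c, a catalytic subunit of signal peptidase, was higher in EpCAM+ by 2.34 in monoculture (SE 0.033, adjusted p = 1.31e-10) and 2.53 in coculture (SE 0.033, adjusted p = 9.75e-11), in the opposite direction to most chaperones. Of 12 other degradation genes, 8 were lower and 4 higher in monoculture and 7 lower and 4 higher in coculture, against 9 and 2, and 8 and 3, by the median of ratios. Of 11 further eIF2 kinases, phosphatases and ER membrane factors, 4 were higher and 4 lower in monoculture, and 1 was higher and 8 lower in coculture. By the median of ratios these were 1 and 7, and 1 and 10. Creb3l1 and Creb3l2, ER-bound factors related to ATF6 and tied to secretion of matrix, were lowest in both cultures, with Creb3l1 at -4.16 in monoculture (adjusted p = 1.27e-10) and -4.87 in coculture (adjusted p = 6.61e-11), or -5.84 there with the share subtracted, and Creb3l2 at -2.65 and -2.55 (adjusted p = 1.15e-10 and 1.51e-10).

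Of 19 further targets of ATF4 and CHOP, 11 were lower in EpCAM+ in each culture, and 6 higher in monoculture and 5 in coculture, with medians of -0.45 and -0.47. The shares of all tested genes were 32.4% lower and 55.4% higher in monoculture, and 28% and 59.2% in coculture. Gdf15, a stress cytokine, was at -2.98 in monoculture (SE 0.1, adjusted p = 2.36e-08) and -1.77 in coculture (SE 0.1, adjusted p = 6.92e-07), and the factor Atf5 at -2.72 and -1.58 (adjusted p = 5.89e-12 and 9.64e-11). Atf3, a further stress factor of the branch, ran against them, at 2.62 in monoculture (SE 0.061, adjusted p = 2.46e-09) and 1.97 in coculture (SE 0.061, adjusted p = 1.49e-08), as did Ddit4, an inhibitor of mTORC1 signalling, at 1.73 and 1.56 (adjusted p = 8.76e-11 and 1.62e-10). In EpCAM+ cells, 15 of the 19 were lower in monoculture than in coculture, against 34.9% of all tested genes. Their median was -0.31, with Nupr1, a stress-induced chromatin protein, lowest at -1.02 (adjusted p = 7.94e-08). In EpCAM- cells, 13 were lower and 2 higher in monoculture, against 30.3% and 32.4% of all tested genes. The median there was -0.21, and Atf3 and the secreted protein Stc2 were lowest, at -1.52 each (adjusted p = 4.42e-07 and 8.85e-07). Ddit3, by contrast, was lower in EpCAM+ and higher in EpCAM- cells. Of 12 aminoacyl-tRNA synthetases, which charge tRNAs with amino acids, 8 were lower and 3 higher in EpCAM+ in monoculture and 9 lower and 2 higher in coculture. By the median of ratios these were 10 and 2 in monoculture, and in coculture 11 were called, all as lower. All 12 were lower in monoculture than in coculture in EpCAM- cells, with a median of -0.37 and Tars lowest at -0.61 (adjusted p = 2.08e-07), and 10 were lower in EpCAM+ cells, with a median of -0.13. In EpCAM+ cells the count was 5 by the median of ratios, and 6 without either monoculture EpCAM+ library or without replicate 2 of coculture EpCAM+.

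**Figure D5:**
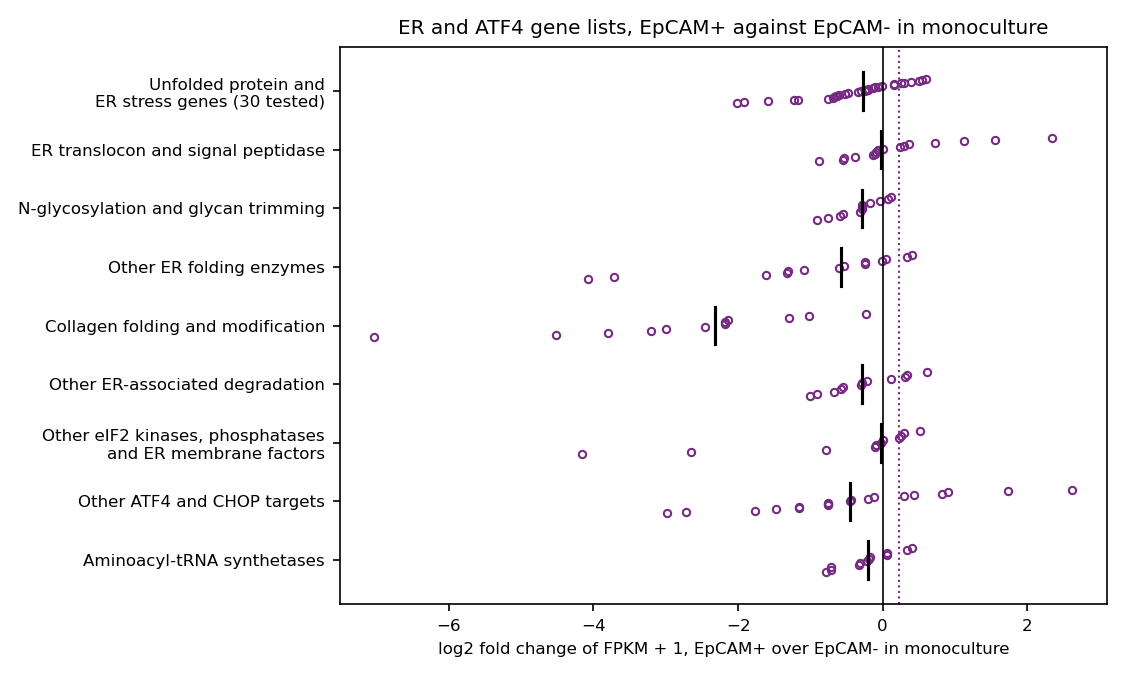
Log2 fold change of FPKM + 1, EpCAM+ over EpCAM- in monoculture, of each tested gene (circles) of the unfolded protein and ER stress genes and of 8 lists from the same pathway, with the median of each list (black line) and of all tested genes (dotted line). Collagen folding genes lie lowest, with a median of -2.32, and the translocon list is centred near 0, below the 0.23 of all tested genes.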

How the data were processed

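RNA was sequenced from both ends on an Illumina HiSeq, per the labels. For mm10, the submitters' processing notes list HISAT2, HTSeq, SAMtools, cutadapt, FastQC and edgeR and give versions for none of them. Per gene, the files hold FPKM made by the authors. How FPKM was computed, from which annotation, with what use of strand and of reads that several genes share, is not given in the sources used here. Read depth is therefore unknown, and no counting interval is printed.

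Genes with 1 FPKM or more in at least 2 libraries entered the fit. Group means of log2(FPKM + 1) were estimated with limma 3.58.1 (R 4.3.3) from all 8 libraries, leaving 4 residual degrees of freedom, and moderated by eBayes with a trend. Fold changes on this scale understate those of low genes. Two-sided p-values were adjusted over all 12012 genes with the Benjamini-Hochberg method, and calls are those with an adjusted p under 0.05. Pooling the spread was needed because the smallest p of an exact test between 2 and 2 libraries is 0.333. Python 3.11.15, pandas 2.3.3 and matplotlib 3.10.9 made the other tables and the figures. To estimate how much EpCAM- RNA an EpCAM+ library held, 8 genes of EpCAM- cells were used, picked from earlier results of these data. Their EpCAM+ level was divided by the mean EpCAM- level of the same culture, and the median was taken.

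The 31 genes, their roles and the lists of the pathway were chosen with earlier results of these data known. By rule, every gene of the 31 is described. Values per library are given for those with a log2 fold change of at least 1 in some comparison and for Hspa5, Xbp1, Atf4 and Ddit3. Of each other list, the called genes with the 2 highest and 2 lowest log2 fold changes in a comparison could be named. Log2 fold changes below 0.3 in size are mostly not printed, which was decided with the values in view. Positions are from GENCODE on GRCm38, and promoters are from RefSeq, in which 28 of the 31 genes were matched. The alternatives changed the pseudocount (0.1 or 0.5), the filter (none, or 5 FPKM), the scaling (equal sums, median of ratios, quantiles), the moderation (no trend, or robust), the samples fitted (those of the 2 groups alone, or all but 1 library), the replicate block and the share of EpCAM- RNA, which was subtracted.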

Additional observations from a re-analysis of the deposited data

Results flagged for a closer look

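For 21 of the 30 tested genes the difference between EpCAM+ and EpCAM- cells was not the same in monoculture and coculture, by the interaction in the limma fit. It was called for 65.2% of all tested genes, 26% as higher and 39.2% as lower. The count of the members thus lay near the share of all genes and does not set them apart. Values of the interaction are log2, monoculture minus coculture. It was negative, with EpCAM+ lower relative to EpCAM- in monoculture, for Ddit3 (-1.35), Trib3 (-1.16), Eif2ak3 (-1.16), Sel1l (-0.71), Chac1 (-0.70), Herpud1 (-0.64), Sdf2l1 (-0.61), Edem1 (-0.36), Atf4 (-0.36), Dnajb9 (-0.32), Syvn1 (-0.20), Dnajc3 (-0.18) and Asns (-0.09). It was positive for Hyou1 (0.36), Atf6 (0.33), Manf (0.30), Sec61b (0.30), Hspa5 (0.24), Canx (0.13), Pdia4 (0.13) and Calr (0.12). The call of Atf4 was lost without replicate 1 of monoculture EpCAM- (adjusted p = 0.0552), that of Syvn1 without replicate 1 of monoculture EpCAM+ (adjusted p = 0.0517) or replicate 2 of coculture EpCAM+ (adjusted p = 0.0536), and that of Asns without any of 6 libraries in turn. Of these, Sdf2l1 and Sel1l were called in opposite directions in the 2 cultures, with Sdf2l1 at -0.21 in monoculture and 0.40 in coculture, and Sel1l at -0.60 and 0.12, the last of which turned its sign by the median of ratios. The estimated share of EpCAM- RNA was 1.68% and 1.7% in coculture EpCAM+ libraries and 0.121% and 0.133% in monoculture EpCAM+ libraries. Whether these shares are RNA carried over from EpCAM- cells was not tested. With those shares subtracted, the interaction was -1.32 for Ddit3, -1.14 for Trib3 and -0.04 for Asns, the last no longer called (adjusted p = 0.295).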

How the results depend on the processing

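Single values were followed where a member's log2 fold change reached 0.3 in size or its interaction was called. The genes of the other lists that could be named and some smaller values of Hspa5, Xbp1, Atf4 and Ddit3 were followed too. Under an alternative, 34 of these values changed side of the threshold and 1 turned its sign, against 3082 that kept both. The 1 was the interaction of Calr (-0.06 with quantile normalization). Other small values, such as the fraction differences of Hyou1 and Sel1l in coculture, were outside this tally. Of all 150 values of the members, 16 turned their sign under some scaling, each at 0.25 or less in size. Asns, Syvn1 and Atf4 lost the call of their interaction under some alternatives: Asns ranged from -0.11 to -0.07 with a library left out, Syvn1 was at -0.08 with quantile normalization (adjusted p = 0.244), and Atf4 at -0.34 (adjusted p = 0.0552) without replicate 1 of monoculture EpCAM-. Xbp1 between cultures was called in EpCAM- cells (-0.28, adjusted p = 0.000833) without replicate 2 of coculture EpCAM-, and in EpCAM+ cells, where it was at -0.17, with only the libraries compared (adjusted p = 0.0119) and without replicate 1 or 2 of coculture EpCAM- (adjusted p = 0.0043 and 0.00426). The cause was not tested.

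The number of the 30 genes called higher in EpCAM+ was in coculture 3 by the median of ratios and 5 with quantile normalization, and in monoculture 4 by the median of ratios. Between cultures in EpCAM+ cells, the number past 2-fold was 2, both lower, with a pseudocount of 0.1 or 0.5, and 1 to 2 with a library left out. The number higher was 7 to 13 with a library left out, and the number called 17 to 23.

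Of the other lists, N-glycosylation had 0 genes called higher in EpCAM+ in both cultures with a constant sum, the median of ratios or quantiles, as the centre of all genes moved, and in monoculture 1 with eBayes without trend and 1 to 2 with a library left out, 1 being the count without replicate 1 of monoculture EpCAM+. The translocon list had 4 higher and 10 lower in coculture by the median of ratios, the other folding enzymes 1 higher there and 1 higher in monoculture with a filter of 5 FPKM, and other degradation 2 higher in monoculture by the median of ratios. The eIF2 kinase list had 1 higher and 7 lower in monoculture by the median of ratios, 2 and 7 with quantile normalization, and 1 to 2 higher in coculture with a library left out, 2 being the count without replicate 2 of either coculture group. Further ATF4 and CHOP targets had 3 higher in coculture by the median of ratios, and between cultures in EpCAM+ cells 1 higher by the median of ratios and 0 to 1 with a library left out, 1 being the count without replicate 1 of monoculture EpCAM+. The synthetases had 1 higher in coculture with a constant sum or quantiles and 0 by the median of ratios, and between cultures in EpCAM+ cells 5 lower by the median of ratios, 6 with the share subtracted and 6 to 10 with a library left out.

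Replicate numbers did not pair the libraries: the deviations of same-numbered libraries correlated between -0.0726 and 0.0406 over the pairs of groups. With a replicate block, 29 of the 30 genes were called between fractions in monoculture, 26 in coculture, 22 between cultures in EpCAM+, 18 in EpCAM- and 20 in the interaction. With 2 libraries per group and depth in reads unknown, changes close to 0 rest on the very small spread between replicates.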

Other observations

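A few genes were far apart between the replicates of a group although the members were not. Of genes at 5 FPKM or more, 9 to 18 per group were over 2-fold apart. Among them Cebpb, whose product pairs with ATF4 and with CHOP, was listed at 1.79 and 31.6 FPKM in coculture EpCAM+ libraries and at 26.9 and 0.65 FPKM in coculture EpCAM- libraries; it was picked after its values were seen. It is one of the 19 further targets of ATF4 and CHOP and was called in none of the 4 comparisons. Left out, an alternative chosen after seeing the data, it changed no count of that list, and the medians of the other 18 were -0.44 between fractions in monoculture, -0.56 in coculture, -0.35 between cultures in EpCAM+ cells and -0.21 in EpCAM- cells.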
